A study of Mus musculus with 12 samples.

Results

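The interferon-stimulated genes of the colon were followed across WT mice and mice lacking Atf6 or Atf6b, with and without colitis. The list held 42 mouse genes that type I and type II interferons induce, chosen by name and by no threshold on a measured value, though with earlier results of these arrays known. A probe belonged to the list if the accession in the array design named 1 of these genes. That gave 40 of the 42 genes a probe, all 40 were tested among 23239 genes or transcripts, and Mx1 and Mx2 had no probe that could be named. The 40 were grouped by role into 22 antiviral effectors, 9 guanylate-binding proteins (GBP) and immunity-related GTPases (IRG), 6 regulators of the interferon response and 3 genes of antigen processing.

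RNA of whole colon from male C57BL/6J mice had been hybridised to 12 Agilent arrays with 1 dye, 2 arrays for each of 6 groups. The genotypes were WT, ATF6aKO, which lacks Atf6, and ATF6bKO, which lacks Atf6b, and each was sampled untreated (UT) or after 3 days of drinking water with 3% dextran sulfate sodium (DSS), which damages the epithelial lining and causes colitis. ATF6a and ATF6b are proteins of the endoplasmic reticulum membrane whose cleaved fragments act as transcription factors when unfolded proteins accumulate. The labels give neither the age of the mice nor the cells in which the genes were deleted, and they do not say whether the 2 arrays of a group came from 2 animals, so the spread behind the p-values is that between these samples and may be technical.

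The 4 WT samples carry labels that contradict each other. Their titles and source names say DSS where their descriptions and treatment fields say untreated, and the reverse. WT groups are therefore called "titled DSS" and "titled UT". Each comparison of a knockout's DSS difference with that of WT is given also with the groups exchanged. The labels of the 8 knockout samples show no such conflict. In a table of processed values that the authors deposited, the 4 WT columns hold the arrays of the other WT group, and the ATF6aKO columns have the replicates of each group exchanged. The scanner files were used as assigned.

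Interferons bind receptors that signal through JAK kinases to transcription factors. Type I and type III interferons act mainly through a complex holding STAT2 and IRF9 that binds the interferon-stimulated response element, and interferon gamma acts mainly through the gamma-activated site. The antiviral effectors recognise or block viral RNA and proteins. The GBP and IRG families, which interferon gamma induces strongly in mice, assemble on the vacuoles of intracellular microbes, and the immunoproteasome subunits and the peptide transporter feed peptides to MHC class I. In the inflamed colon interferon gamma comes largely from T and NK cells.

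The level of a gene is log2 of its processed signal less log2 of the 75th percentile of its array, so a difference of 1 is a factor of 2. A gene is said to have risen or fallen, or to be higher or lower in a comparison, where the limma p-value adjusted over all 23239 genes was under 0.05. The arrays had 66.0% to 76.9% of their spots well above background, and replicate arrays correlated at 0.9756 to 0.9916. All 4 arrays of a genotype were taken to lie on 1 slide, although a barcode was at hand for only 2 of the 3 slides. A genotype then cannot be told apart from its slide, while the DSS comparisons lie within a slide. Atf6 was at -3.23 to -3.04 on the ATF6aKO arrays against 0.60 to 1.22 on the other 8, and Atf6b was not well above background on 3 of the 4 ATF6bKO arrays. All 40 members were above background in at least 1 group and none was saturated.

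Interferon-stimulated genes are known to be controlled through short promoter elements. RefSeq windows of GRCm38.p6, the 250 bases before a gene's start, were at hand for 33 of the 42 members. The core of the interferon-stimulated response element, searched on both strands as TTTCNNTTTC, was in the windows of 16 of the 33 members (48.5%), against 3.46% of 27025 genes. The core of the gamma-activated site, TTCNNNGAA, was in 11 of the 33 (33.3%), against 8.13% of all genes. Among the GBP and IRG genes with a window, 7 of 7 held the first core and 4 of 7 the second, and among the antiviral effectors 7 of 17 and 4 of 17. No window of Psmb8, Psmb9 or Tap1 held the first core, and Psmb8 held the second. A match says only that these letters are in the window.

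The windows given are those of the 3 antiviral effectors and the 3 GBP or IRG genes with a RefSeq window and the largest DSS difference pooled over both knockouts, 5′ to 3′ on the gene's own strand, with matches to either core in capitals. Positions count back from the base before the start, at -1.
Ifit3, chr19:34583279-34583528 on the + strand, with 2 response element cores that begin at -156 and -122: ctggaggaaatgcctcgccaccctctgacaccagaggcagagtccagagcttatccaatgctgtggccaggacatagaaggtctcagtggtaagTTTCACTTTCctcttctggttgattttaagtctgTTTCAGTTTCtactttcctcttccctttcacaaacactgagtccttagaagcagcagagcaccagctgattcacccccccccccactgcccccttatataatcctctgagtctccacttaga
Ifi44, chr3:151749911-151750160 on the - strand, with no match to either core: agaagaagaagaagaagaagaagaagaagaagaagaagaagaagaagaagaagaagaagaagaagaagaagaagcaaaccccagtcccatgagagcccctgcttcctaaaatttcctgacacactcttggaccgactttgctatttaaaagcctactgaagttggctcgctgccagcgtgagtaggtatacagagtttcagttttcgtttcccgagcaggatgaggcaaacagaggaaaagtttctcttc
Ifit2, chr19:34550444-34550693 on the + strand, the window of 2 that matched, with 1 gamma-activated core that begins at -241: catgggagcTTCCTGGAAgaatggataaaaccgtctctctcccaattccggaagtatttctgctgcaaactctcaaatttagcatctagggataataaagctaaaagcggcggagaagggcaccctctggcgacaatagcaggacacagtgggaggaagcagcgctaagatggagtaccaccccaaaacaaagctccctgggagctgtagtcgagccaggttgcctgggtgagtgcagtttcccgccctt
Tgtp1, chr11:48992247-48992496 on the - strand, with a gamma-activated core that begins at -88 and a response element core at -77: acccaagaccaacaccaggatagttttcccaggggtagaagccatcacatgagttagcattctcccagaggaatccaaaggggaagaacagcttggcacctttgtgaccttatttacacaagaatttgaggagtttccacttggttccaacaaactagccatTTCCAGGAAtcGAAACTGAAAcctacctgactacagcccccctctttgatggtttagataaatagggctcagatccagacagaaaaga
Gbp2, chr3:142620413-142620662 on the + strand, with 1 response element core that begins at -59: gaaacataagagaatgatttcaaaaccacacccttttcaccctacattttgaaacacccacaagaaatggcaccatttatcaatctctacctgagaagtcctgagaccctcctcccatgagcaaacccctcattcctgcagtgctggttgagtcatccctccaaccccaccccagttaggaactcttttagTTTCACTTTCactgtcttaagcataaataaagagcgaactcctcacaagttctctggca
Igtp, chr11:58199306-58199555 on the + strand, with a gamma-activated core that begins at -45 and a response element core at -34: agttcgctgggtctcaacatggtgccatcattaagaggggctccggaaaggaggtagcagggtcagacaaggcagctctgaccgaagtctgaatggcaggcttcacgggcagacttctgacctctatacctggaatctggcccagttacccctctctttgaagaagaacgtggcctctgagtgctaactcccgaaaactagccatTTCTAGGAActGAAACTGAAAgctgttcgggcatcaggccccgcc
In Tgtp1 and Igtp the pair of cores lay next to each other and did not overlap.

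Across the 12 arrays the interferon-stimulated genes were highest in ATF6bKO colon given DSS. The group mean was highest there for 37 of the 40 members, the exceptions being Isg20 (WT titled UT), Oas3 (ATF6aKO DSS) and Irf7 (WT titled DSS). For 30 of the 40 members the 2 ATF6bKO DSS arrays were the 2 highest of the 12. That held for 9 of 9 GBP and IRG genes, 3 of 3 antigen processing genes, 5 of 6 regulators and 13 of 22 antiviral effectors. The lowest group mean lay in ATF6aKO UT for 22 of the 40 members and in WT titled UT for 11. How often all genes showed these orders was not counted.

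To set the roles side by side, each gene's level was expressed as its deviation from its own mean over the 12 arrays. The median deviation of the GBP and IRG genes was 2.53 and 2.72 on the ATF6bKO DSS arrays and lay between -1.30 and 0.41 on the other 10. For the antiviral effectors the same medians were 1.16 and 1.01, against -0.66 to 0.27. On both ATF6bKO DSS arrays the GBP and IRG median exceeded the antiviral median, by 1.37 and 1.71. On the other 10 arrays the difference between the 2 medians ran from -0.91 to 0.44, and the antiviral median was the higher of the 2 on 8 of them. The antigen processing genes stood at 1.82 and 2.10 on the ATF6bKO DSS arrays and the regulators at 0.77 and 0.62.

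**Figure D1:**
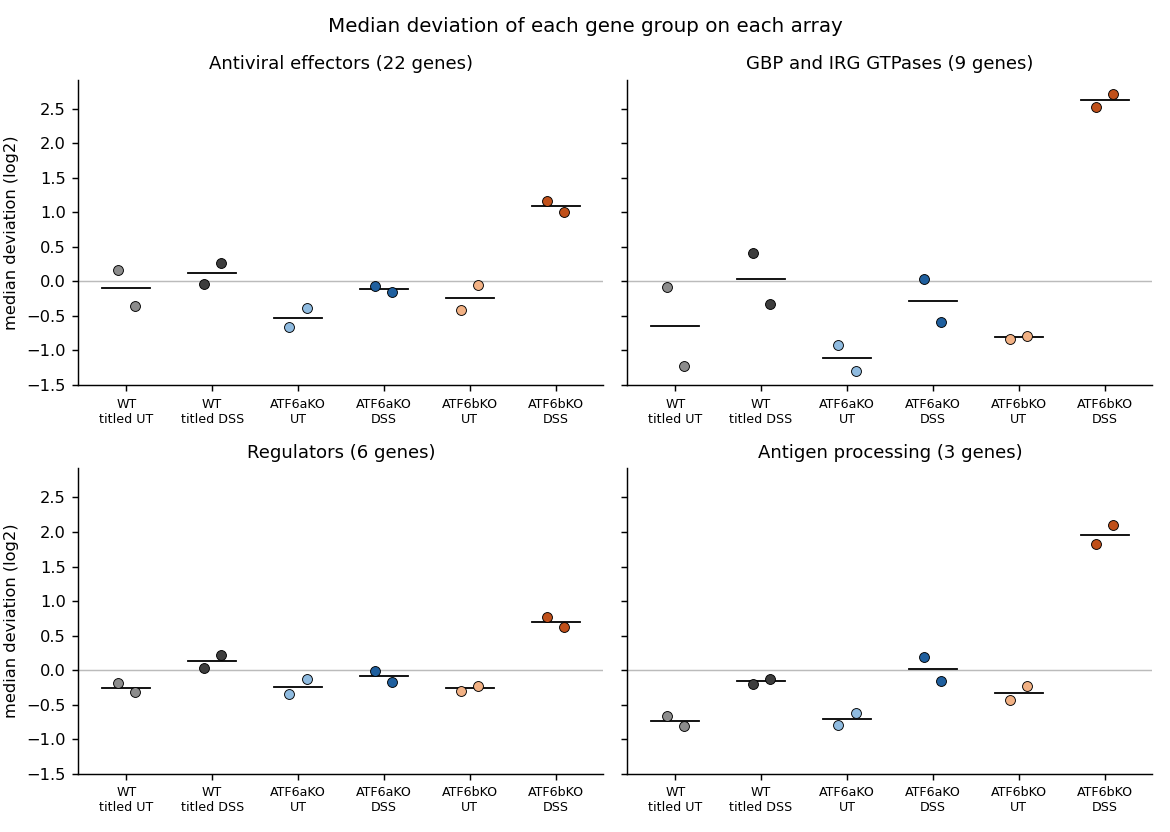
Median deviation of each role's genes from their own mean over 12 arrays (log2, vertical axis), with 1 point per array, a bar at the mean of the 2 arrays of a group, and the 6 groups along the horizontal axis. The GBP and IRG genes reach 2.53 and 2.72 on the ATF6bKO DSS arrays, and the antiviral effectors 1.16 and 1.01.

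Replicate arrays differed for the GBP and IRG genes as a set. All 9 were higher on array 1 than on array 2 of WT titled UT, by a median of 1.09, and also of WT titled DSS (0.62) and ATF6aKO DSS (0.63). In ATF6aKO UT 8 of 9 were higher on array 1 (0.23), and in ATF6bKO 2 of 9 in UT and 2 of 9 in DSS. Most of these genes thus differed in the same direction between same-numbered arrays of a genotype. In ATF6bKO the 2 arrays of a group lay closer, with a median absolute difference of 0.12 in UT and 0.17 in DSS. The replicate numbers carry no order, and what set the arrays of a group apart was not tested.

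In ATF6bKO colon DSS was accompanied by higher levels of most interferon-stimulated genes. Of the 40 members 30 rose and none fell, with a median difference of 1.84, while 5.71% of all genes tested rose and the median over all genes was -0.061. Both DSS arrays lay above both UT arrays for 39 of the 40 members, and Eif2ak2 was the member whose groups overlapped. The share of all genes separated in this way was not counted, so the 39 cannot be set against it. The count of members that rose was 9 of 9 GBP and IRG genes (median 3.52), 3 of 3 antigen processing genes (2.24), 13 of 22 antiviral effectors (1.24) and 5 of 6 regulators (0.84). These arrays measure whole colon, where more cells of a type and more RNA per cell cannot be told apart.

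The widest DSS differences of members in ATF6bKO were those of 8 of the 9 GBP and IRG genes, all but Irgm1. Iigp1, an IRG that disrupts parasite vacuoles, was at 0.27 and 0.22 on the UT arrays and 5.30 and 5.40 on the DSS arrays. Its difference was 5.11 on the log2 scale (SE 0.70, adjusted p = 0.0034), or 34.5-fold. The UT arrays lay 0.06 apart and the DSS arrays 0.10. Tgtp1, another IRG of the vacuole-attacking kind, was at -0.59 and -1.09 on the UT arrays and 4.17 and 4.27 on the DSS arrays. It rose by 5.06 (SE 0.61, adjusted p = 0.00211). A second Tgtp1 probe gave a difference of 2.04 in ATF6bKO, and transcripts of Tgtp1 and its near-identical copy Tgtp2 may bind the same probes, so the size for this gene is uncertain.

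Gbp2, which helps break open pathogen vacuoles, was at 1.59 and 1.60 on the UT arrays and 5.20 and 5.53 on the DSS arrays. It rose by 3.77 on the log2 scale (SE 0.35, adjusted p = 0.00127), or 13.7-fold. Gbp6 was at -2.86 and -2.78 on the UT arrays and 0.58 and 0.83 on the DSS arrays, a rise of 3.52 (SE 0.42, adjusted p = 0.00206). Gbp5, which promotes inflammasome assembly, went from levels of -2.12 and -1.61 to 1.55 and 1.48. Its rise was 3.38 (SE 0.39, adjusted p = 0.00192). Gbp3 was at -0.15 and 0.21 on the UT arrays and 3.03 and 3.36 on the DSS arrays, and it rose by 3.17 (SE 0.35, adjusted p = 0.00185). In each of these 4 GBP genes the lower DSS array stood at least 2.83 above the higher UT array.

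The regulatory IRG proteins control the vacuole-attacking ones. Igtp was at 1.55 and 1.56 on the UT arrays and 5.03 and 5.20 on the DSS arrays, and it rose by 3.56 on the log2 scale (SE 0.34, adjusted p = 0.00131), or 11.8-fold. Irgm2 was at 1.91 and 2.03 on the UT arrays and 4.99 and 4.99 on the DSS arrays, a rise of 3.01 (SE 0.36, adjusted p = 0.0022). Irgm1, also needed for autophagy of mycobacteria, had the smallest rise of the 9 GTPases. Its levels were 1.66 and 1.86 on the UT arrays and 3.75 and 3.51 on the DSS arrays and its difference 1.87 (SE 0.23, adjusted p = 0.00223), or 3.67-fold. The second Irgm1 probe gave 1.87 as well.

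**Figure D2:**
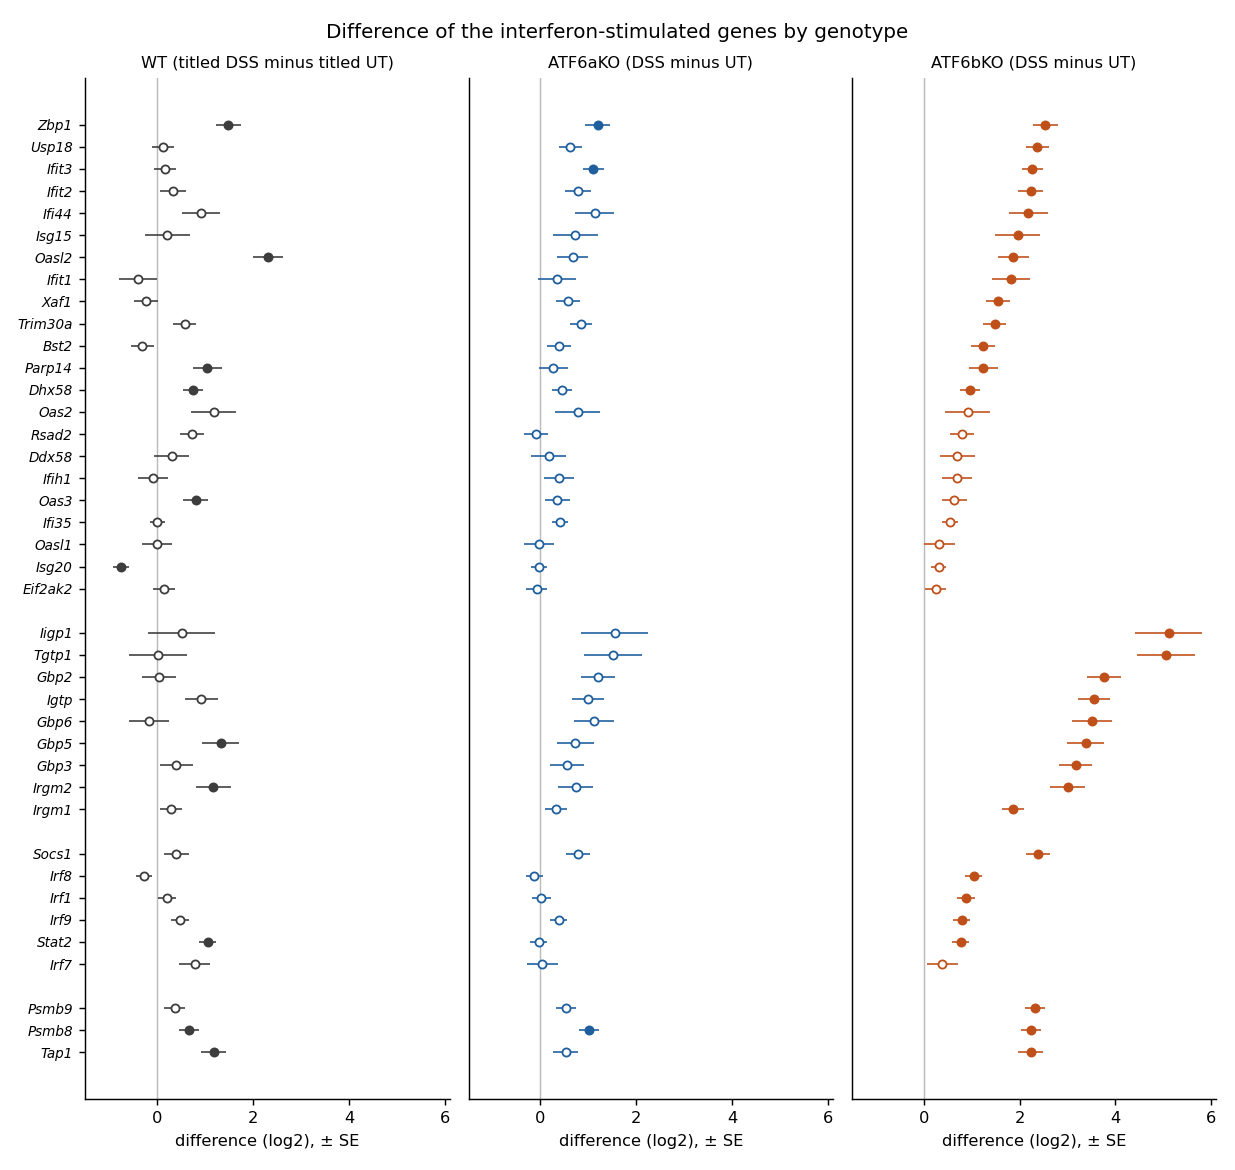
Difference between the DSS and UT arrays of each genotype for the 40 members (log2, horizontal axis; error bars are ± SE), grouped by role, with filled points for an adjusted p under 0.05. In ATF6bKO the 9 GBP and IRG genes lie between 1.87 and 5.11 and are all filled, in ATF6aKO 3 members are filled, and the WT panel follows the titles, so its sign turns if the WT groups are exchanged.

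Of the antiviral effectors, Zbp1, a sensor of Z-form nucleic acid that can trigger necroptosis, had the widest difference in ATF6bKO. It was at 1.48 and 2.18 on the UT arrays and 4.37 and 4.37 on the DSS arrays, and it rose by 2.54 on the log2 scale (SE 0.26, adjusted p = 0.0016). The IFIT proteins bind viral RNA or its sensors. Ifit3 was at -0.77 and -0.70 on the UT arrays and 1.46 and 1.60 on the DSS arrays, with a rise of 2.27 (SE 0.22, adjusted p = 0.00145), or 4.82-fold. Ifit2 was at -2.70 and -2.95 on the UT arrays and -0.63 and -0.55 on the DSS arrays and rose by 2.23 (SE 0.27, adjusted p = 0.00206). Ifit1 was at -2.52 and -1.51 on the UT arrays and -0.15 and -0.23 on the DSS arrays, and its rise was 1.82 (SE 0.39, adjusted p = 0.0188). The UT arrays of Ifit1 were 1.01 apart, whereas the DSS arrays of all 3 IFIT genes were within 0.14 of each other.

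Isg15 is a ubiquitin-like protein that is attached to other proteins, and Usp18 removes it and dampens the type I receptor. Usp18 was at -3.03 and -2.37 on the UT arrays and -0.31 and -0.36 on the DSS arrays, a rise of 2.37 on the log2 scale (SE 0.24, adjusted p = 0.00146). Isg15 was at -0.41 and 0.86 on the UT arrays and 2.23 and 2.14 on the DSS arrays, and it rose by 1.96 (SE 0.48, adjusted p = 0.0296). Its UT arrays differed by more than 1, and the higher of them still lay below both DSS arrays. Ifi44, an interferon-induced protein, was at -3.92 and -2.77 on the UT arrays and -1.02 and -1.30 on the DSS arrays and rose by 2.18 (SE 0.41, adjusted p = 0.0101). Oasl2, a relative of the oligoadenylate synthetases, was at 0.58 and 1.60 on the UT arrays and 3.14 and 2.78 on the DSS arrays. It rose by 1.87 (SE 0.32, adjusted p = 0.00755).

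A further 5 antiviral effectors rose by less in ATF6bKO. Xaf1, which promotes apoptosis, was at -1.26 and -0.92 on the UT arrays and 0.59 and 0.33 on the DSS arrays, a rise of 1.55 (SE 0.25, adjusted p = 0.00643). Trim30a was at -1.13 and -0.79 on the UT arrays and 0.66 and 0.37 on the DSS arrays, and its rise was 1.48 (SE 0.23, adjusted p = 0.00563). Bst2, or tetherin, which holds budding virions at the cell surface, was at 1.96 and 2.25 on the UT arrays and 3.10 and 3.58 on the DSS arrays and rose by 1.24 (SE 0.25, adjusted p = 0.0139). Parp14, which adds ADP-ribose to proteins, was at 2.19 and 2.34 on the UT arrays and 3.60 and 3.41 on the DSS arrays, a rise of 1.24 (SE 0.30, adjusted p = 0.0306). Dhx58, a helicase of the RIG-I family, was at -0.90 and -0.81 on the UT arrays and 0.18 and 0.05 on the DSS arrays and rose by 0.97 (SE 0.21, adjusted p = 0.0196). In all 5 both DSS arrays lay above both UT arrays, with the groups closest in Bst2 and Dhx58, 0.86 apart in each.

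The other 9 antiviral effectors had positive differences in ATF6bKO that did not pass the threshold. The smallest was that of Eif2ak2, the kinase that halts translation when it binds double-stranded RNA, at 0.25 (SE 0.23, adjusted p = 0.514). Its levels of -0.01 and 0.30 on the UT arrays and 0.58 and 0.21 on the DSS arrays overlapped. The oligoadenylate synthetases, which activate RNase L, had differences of 0.92 (adjusted p = 0.238) for Oas2 and 0.64 (adjusted p = 0.152) for Oas3, and a second Oas3 probe gave 1.95. Oasl1 had a difference of 0.33. For the RNA sensors Ddx58, which encodes RIG-I, and Ifih1, which encodes MDA5, it was 0.70 and 0.70. Rsad2, or viperin, had 0.80 (adjusted p = 0.0682), Ifi35 0.55 (adjusted p = 0.0554) and the exonuclease Isg20 0.31 (adjusted p = 0.263). The other Rsad2 probes gave 1.19 and 0.41.

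Among the regulators Socs1, which inhibits the JAK kinases below the interferon receptors, had the widest difference. It was at -0.23 and -0.33 on the UT arrays and 2.08 and 2.14 on the DSS arrays, a rise of 2.39 on the log2 scale (SE 0.25, adjusted p = 0.00169), or 5.22-fold. Irf8, a factor of myeloid cells, was at 3.03 and 2.98 on the UT arrays and 4.15 and 3.94 on the DSS arrays and rose by 1.04 (SE 0.17, adjusted p = 0.0069). Irf1, a factor that induces GBP genes, was at 4.60 and 4.57 on the UT arrays and 5.51 and 5.41 on the DSS arrays, with a rise of 0.88 (SE 0.19, adjusted p = 0.0188). Its second probe gave 0.18, so the rise was not shared by both. Irf9 and Stat2 encode members of the complex that acts below the type I receptor. Irf9 was at 0.26 and 0.34 on the UT arrays and 1.09 and 1.11 on the DSS arrays and rose by 0.79 (SE 0.18, adjusted p = 0.0238). Stat2 was at 0.83 and 1.04 on the UT arrays and 1.81 and 1.60 on the DSS arrays, a rise of 0.77 (SE 0.17, adjusted p = 0.0205). Irf7, the factor that amplifies type I interferon production, had a difference of 0.39 (adjusted p = 0.47), with levels of -0.11 and -0.04 on the UT arrays and 0.16 and 0.47 on the DSS arrays.

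The 3 antigen processing genes rose in ATF6bKO by nearly the same amount. Psmb9, an immunoproteasome subunit, was at 2.44 and 2.65 on the UT arrays and 4.72 and 5.01 on the DSS arrays, a rise of 2.32 on the log2 scale (SE 0.21, adjusted p = 0.00115). Psmb8, another such subunit, was at 2.67 and 2.90 on the UT arrays and 4.82 and 5.23 on the DSS arrays and rose by 2.24 (SE 0.21, adjusted p = 0.00131). Tap1, part of the transporter that carries peptides into the endoplasmic reticulum, was at -1.43 and -1.71 on the UT arrays and 0.64 and 0.68 on the DSS arrays, with a rise of 2.23 (SE 0.26, adjusted p = 0.00192).

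Of the 30 rises in ATF6bKO, 21 passed whichever single array was left out. The 9 that missed the threshold in at least 1 such fit were Bst2, Dhx58, Ifi44, Ifit1, Irf1, Irf9, Isg15, Parp14 and Stat2, with highest adjusted p-values of 0.0564 (Ifi44) to 0.154 (Isg15). The count was 21 without the first ATF6bKO UT array, 22 without either DSS array and 34 without either WT titled UT array.

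**Figure D3:**
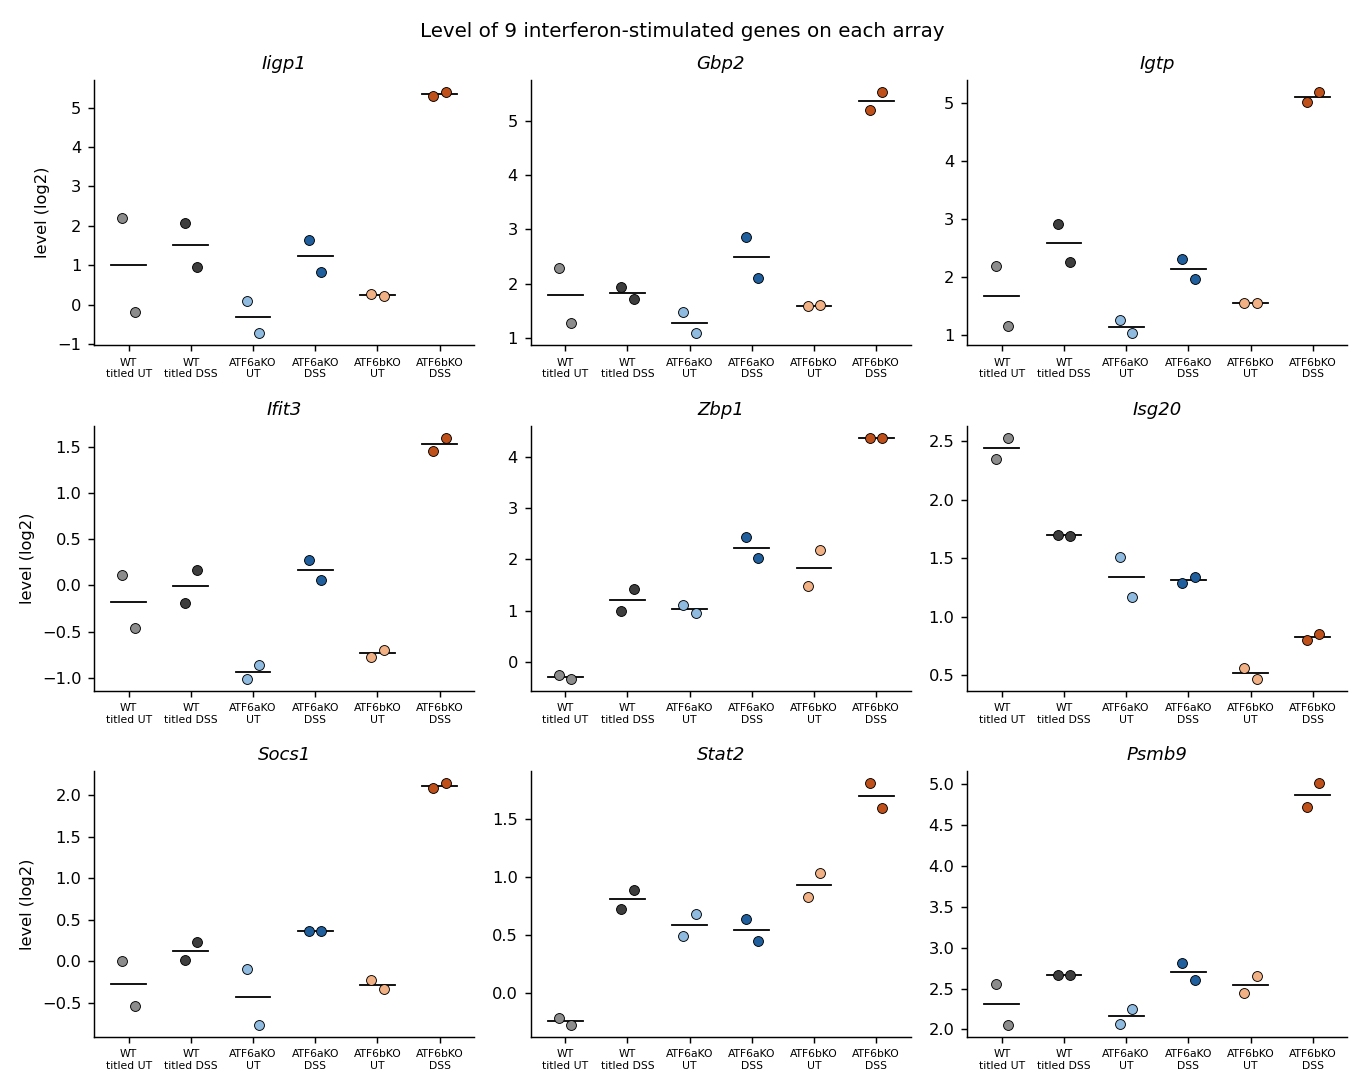
Level of 9 members on each of the 12 arrays (log2 relative to the array's 75th percentile; each panel has its own vertical axis), with 1 point per array, a bar at the mean of the 2 arrays of a group, and the 6 groups along the horizontal axis. Iigp1 is at 5.30 and 5.40 on the ATF6bKO DSS arrays and at most 2.20 elsewhere, while Isg20 is highest on the WT titled UT arrays at 2.35 and 2.53.

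In ATF6aKO colon fewer of these genes passed the threshold with DSS than in ATF6bKO. The members that rose were Zbp1, Ifit3 and Psmb8, 3 of 40, and none fell, while 2.88% of all genes rose. The median difference was 0.54 against 0.036 over all genes. Of the 40 members 34 had a positive difference, 31 had both DSS arrays above both UT arrays, and 1, Eif2ak2, had them below. These counts were not made over all genes and so have no share to be read against. By role 2 of 22 antiviral effectors rose (median 0.43), 0 of 9 GBP and IRG genes (0.99), 0 of 6 regulators (0.03) and 1 of 3 antigen processing genes (0.54).

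Zbp1 was at 1.12 and 0.96 on the UT arrays and 2.43 and 2.03 on the DSS arrays of ATF6aKO, a rise of 1.19 on the log2 scale (SE 0.26, adjusted p = 0.033). Ifit3 was at -1.01 and -0.86 on the UT arrays and 0.27 and 0.06 on the DSS arrays, and it rose by 1.10 (SE 0.22, adjusted p = 0.0253). Psmb8 was at 2.24 and 2.45 on the UT arrays and 3.50 and 3.22 on the DSS arrays and rose by 1.02 (SE 0.21, adjusted p = 0.0283). All 3 rises were about 2-fold, at 2.15-fold, 2.29-fold and 2.03-fold for Ifit3, Zbp1 and Psmb8. None of the 3 passed without any 1 of the 4 ATF6aKO arrays, 2 members passed without either ATF6bKO DSS array, and 7 members passed without either WT titled UT array.

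The 9 GBP and IRG genes all had their ATF6aKO DSS arrays above their UT arrays, although no difference passed. In limma 0 of the 9 had an adjusted p under 0.05 and 4 of 9 an unadjusted p under 0.05, as had 1 of the 6 regulators. Over all members the unadjusted count was 15 of 40, all upward, against 2944 of 23239 genes upward (23.9% in either direction). Iigp1 was at 0.09 and -0.72 on the UT arrays and 1.63 and 0.83 on the DSS arrays, a difference of 1.55 (SE 0.70, adjusted p = 0.222). Tgtp1 was at -0.56 and -1.64 on the UT arrays and 0.82 and 0.00 on the DSS arrays, with 1.51 (SE 0.61, adjusted p = 0.174). Gbp2 was at 1.47 and 1.09 on the UT arrays and 2.85 and 2.11 on the DSS arrays, a difference of 1.20 (SE 0.35, adjusted p = 0.0767). The first DSS array lay above the second for all 9 of these genes. Igtp was at 1.26 and 1.04 on the UT arrays and 2.31 and 1.97 on the DSS arrays, a difference of 0.99 (SE 0.34, adjusted p = 0.118), and Gbp6, Irgm2, Gbp5, Gbp3 and Irgm1 had differences of 1.11, 0.74, 0.73, 0.55 and 0.32.

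No other member passed in ATF6aKO. Socs1 was at -0.09 and -0.76 on the UT arrays and 0.36 and 0.36 on the DSS arrays, a difference of 0.78 (SE 0.25, adjusted p = 0.102). Ifi44 had a difference of 1.13, Trim30a 0.85, Ifit2 0.78, Usp18 0.62 and Isg15 0.73, none of which passed. With the probes used, the differences of the remaining antiviral effectors lay between -0.09 (Rsad2) and 0.78 (Oas2). The other Rsad2 probes gave 0.56 and 0.41. For Parp14 the probe used gave 0.27, and its other probes gave 0.67 and 1.08. Psmb9 and Tap1 had 0.54 and 0.53. Stat2 was at 0.49 and 0.68 on the UT arrays and 0.64 and 0.45 on the DSS arrays, so that its groups overlapped, and its difference was -0.04 (SE 0.17, adjusted p = 0.925). The other interferon regulatory factors had 0.02 (Irf1), 0.04 (Irf7), -0.13 (Irf8) and 0.38 (Irf9).

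With both knockouts in 1 fit of 8 arrays, 29 of the 40 members rose with DSS and none fell, against 13.3% of all genes. The median difference was 1.13, and by role 15 of 22 antiviral effectors rose (0.83), 9 of 9 GBP and IRG genes (2.28), 2 of 6 regulators (0.45) and 3 of 3 antigen processing genes (1.43). Of the 29, 14 passed under every setting and whichever array was left out, among them the GTPase genes Gbp2, Igtp, Iigp1 and Tgtp1. Gbp3 and Irgm1 did not pass with the replicate number as a block or with no filter on dim probes, and Gbp3, Gbp5, Gbp6, Irgm1 and Irgm2 each lost their call in 5 of the 8 fits that left out an array. The widest were Iigp1 at 3.33 (SE 0.71, adjusted p = 0.0149), Tgtp1 at 3.28 (SE 0.73, adjusted p = 0.0169) and Gbp2 at 2.49 (SE 0.52, adjusted p = 0.0138). Ifit3 rose by 1.69 (SE 0.24, adjusted p = 0.00382). Psmb8 rose by 1.63 (SE 0.27, adjusted p = 0.00596) and Socs1 by 1.58 (SE 0.34, adjusted p = 0.0147).

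Of the 29, 26 had also risen in ATF6bKO alone. Those that passed pooled and not in ATF6bKO were Ifih1, Oas3 and Ifi35. Ifih1 was at 1.59 and 1.59 on the UT arrays and 2.35 and 2.23 on the DSS arrays of ATF6bKO and 1.16 and 1.51 on the UT arrays and 1.80 and 1.65 on the DSS arrays of ATF6aKO, a pooled rise of 0.55 (SE 0.12, adjusted p = 0.0164). Oas3 was at -2.78 and -3.13 on the UT arrays and -2.35 and -2.29 on the DSS arrays of ATF6bKO and -2.43 and -2.55 on the UT arrays and -2.20 and -2.08 on the DSS arrays of ATF6aKO, with 0.49 (SE 0.12, adjusted p = 0.0205). Ifi35 was at 1.35 and 1.20 on the UT arrays and 1.86 and 1.81 on the DSS arrays of ATF6bKO and 0.83 and 1.10 on the UT arrays and 1.35 and 1.41 on the DSS arrays of ATF6aKO, with 0.48 (SE 0.10, adjusted p = 0.0121). In each of the 3 the DSS arrays lay above the UT arrays within both knockouts. The pooled count was 15 without the second ATF6bKO DSS array, 16 without the first and 18 without the first ATF6aKO DSS array.

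In WT 11 of the 40 members differed between the arrays titled DSS and titled UT. By the titles 10 of the 40 members were higher in titled DSS, against 14.7% of all genes, and 1 was lower, against 17.0%. The median difference was 0.38 against -0.043 over all genes. All signs of the WT difference turn if the treatment field is right and the titles are wrong. By role, 5 of 22 antiviral effectors were higher and 1 lower (median 0.25), 2 of 9 GBP and IRG genes were higher (0.40), 1 of 6 regulators (0.43) and 2 of 3 antigen processing genes (0.66).

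Oasl2 had the widest WT difference. It was at -1.22 and -0.95 on the titled UT arrays and 1.04 and 1.42 on the titled DSS arrays, a difference of 2.31 on the log2 scale (SE 0.32, adjusted p = 0.00266). Zbp1 was at -0.24 and -0.32 on the titled UT arrays and 0.99 and 1.42 on the titled DSS arrays, with 1.48 (SE 0.26, adjusted p = 0.00545). The arrays of both genes were far apart between the groups, and so were those of Stat2. Stat2 was at -0.21 and -0.27 on the titled UT arrays and 0.73 and 0.89 on the titled DSS arrays, a difference of 1.05 (SE 0.17, adjusted p = 0.00405). Tap1 was at -2.57 and -1.89 on the titled UT arrays and -0.83 and -1.27 on the titled DSS arrays, with 1.18 (SE 0.26, adjusted p = 0.0114). Isg20, a nuclease that degrades RNA, was the member that was lower in titled DSS. It was at 2.35 and 2.53 on the titled UT arrays and 1.70 and 1.69 on the titled DSS arrays, with -0.75 (SE 0.17, adjusted p = 0.0117).

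The remaining WT differences past the threshold were smaller relative to their error. Gbp5 was at -1.24 and -2.36 on the titled UT arrays and -0.14 and -0.82 on the titled DSS arrays, with 1.32 (SE 0.39, adjusted p = 0.0319), and Irgm2 at 2.22 and 1.13 on the titled UT arrays and 3.01 and 2.69 on the titled DSS arrays, with 1.17 (SE 0.36, adjusted p = 0.039). These 2 were the GTPases that passed. Parp14 was at 2.14 and 1.07 on the titled UT arrays and 2.53 and 2.75 on the titled DSS arrays, with 1.04 (SE 0.30, adjusted p = 0.0317). Dhx58 was at -1.37 and -1.63 on the titled UT arrays and -0.91 and -0.61 on the titled DSS arrays, with 0.74 (SE 0.21, adjusted p = 0.0292). Oas3 and Psmb8 passed narrowly. Their differences were 0.80 (SE 0.26, adjusted p = 0.0479) and 0.66 (SE 0.21, adjusted p = 0.0436). Iigp1 was at 2.20 and -0.20 on the titled UT arrays and 2.07 and 0.95 on the titled DSS arrays, so that its WT groups overlapped, and so did those of Gbp2, at 2.28 and 1.28 on the titled UT arrays and 1.93 and 1.71 on the titled DSS arrays. Ifit3, at 0.11 and -0.46 on the titled UT arrays and -0.19 and 0.17 on the titled DSS arrays, overlapped too. Igtp was at 2.19 and 1.16 on the titled UT arrays and 2.92 and 2.27 on the titled DSS arrays, with groups that lay 0.08 apart, and a difference of 0.92 (SE 0.34, adjusted p = 0.0674). The WT count was 3 without the first titled DSS array and 4 without the second, and Oasl2, Stat2 and Zbp1 passed whichever array was left out. In a fit of the 4 WT arrays alone Oasl2 passed and Stat2 and Zbp1 did not.

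The design sets out to find DSS responses that depend on ATF6a or ATF6b. Between the knockouts, the DSS difference of ATF6bKO exceeded that of ATF6aKO in all 40 members, with a median excess of 1.17, against -0.094 over all genes. No excess passed the threshold: limma called 0 of 40 members and 0 of 23239 genes, a share of 0%, and the lowest adjusted p among the members was 0.299. At an unadjusted p under 0.05 there were 25 of 40 members, all upward, against 792 of 23239 genes upward (8.0% in either direction). The 25 were 9 of 9 GBP and IRG genes, 3 of 3 antigen processing genes, 4 of 6 regulators and 9 of 22 antiviral effectors. The count was 0 under each other setting and without each array in turn.

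The excess of ATF6bKO over ATF6aKO was 3.56 for Iigp1, with a 95% interval of 1.31 to 5.81. Gbp2 had 2.57 (1.44 to 3.70) and Igtp 2.57 (1.48 to 3.66). The median over the 9 GTPases was 2.57. Psmb9 had 1.78 (1.10 to 2.45), Usp18 1.75 (0.99 to 2.51) and Ifit3 1.17 (0.45 to 1.88). The median over the antiviral effectors was 0.87, and the smallest excess, that of Oas2, was 0.14 with an interval of -1.37 to 1.65. Intervals are for each gene on its own and carry no adjustment for the number of genes.

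Against WT, the DSS difference of ATF6bKO was larger for many members. With WT as titled, 20 of 40 members were higher, against 6.29% of all genes, with a median excess of 1.30. With the WT groups exchanged, 31 were higher, against 12.7%, with a median of 2.16. Under both readings 17 members passed: all 9 GBP and IRG genes, the antiviral effectors Ifit2, Ifit3, Usp18 and Xaf1, the regulators Irf8 and Socs1, and Psmb8 and Psmb9. As titled, Gbp2, Gbp6, Tgtp1, Ifit3, Usp18 and Psmb9 passed under every setting and whichever array was left out. Gbp5 lost its call in 11 of the 12 fits that left out an array and with no filter on dim probes. Irgm2 lost it in 9 of the 12, with quantile normalization, with no filter and in the deposited value table. This comparison uses the ATF6bKO arrays of the DSS comparison above, so both share those values.

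The excess of Tgtp1 over WT was 5.04 (SE 0.86, adjusted p = 0.0127) as titled and 5.08 (SE 0.86, adjusted p = 0.00423) exchanged. Iigp1 had 4.60 (SE 0.99, adjusted p = 0.0229) and 5.61 (SE 0.99, adjusted p = 0.00508). For Gbp2 the values were 3.73 (SE 0.50, adjusted p = 0.00858) and 3.82 (SE 0.50, adjusted p = 0.00159). The WT difference itself was 0.02 for Tgtp1 and 0.04 for Gbp2, so that both readings gave nearly the same excess for these. Gbp5, by contrast, had 2.06 as titled and 4.70 exchanged. Psmb9 had 1.96 (SE 0.30, adjusted p = 0.00975) as titled and 2.67 exchanged, and Ifit3 2.11 (SE 0.31, adjusted p = 0.00975) and 2.43. Socs1 had 1.99 (SE 0.36, adjusted p = 0.0149) and 2.78. A second Tgtp1 probe gave 2.04 in ATF6bKO and 0.42 in WT by the titles, against 5.06 and 0.02 for the probe used. For Irf8 the second probe gave 0.91 and 0.29, against 1.04 and -0.28. The size of the excess is therefore uncertain for these 2 genes.

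Other members passed under 1 reading and not the other. Ifit1, Bst2 and Isg20 passed only as titled, with 2.22, 1.55 and 1.05 against 1.43, 0.93 and -0.44 exchanged. Oasl2 had -0.45 as titled and 4.18 (SE 0.45, adjusted p = 0.00091) exchanged. Zbp1 had 1.06 and 4.02 (SE 0.37, adjusted p = 0.000611), Tap1 1.05 and 3.41 (SE 0.37, adjusted p = 0.000904). Rsad2, at -1.54 and -1.14 on the UT arrays and -0.53 and -0.54 on the DSS arrays of ATF6bKO and -1.55 and -1.44 on the titled UT arrays and -1.03 and -0.52 on the titled DSS arrays of WT, passed in this comparison alone, with 1.52 (SE 0.35, adjusted p = 0.0141) exchanged. Without the second ATF6bKO DSS array 7 members passed as titled, without the second WT titled DSS array 8, and without the first array of either group 12. Gbp2, Gbp6, Ifit3, Psmb9, Tgtp1 and Usp18 passed as titled whichever array was left out.

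**Figure D4:**
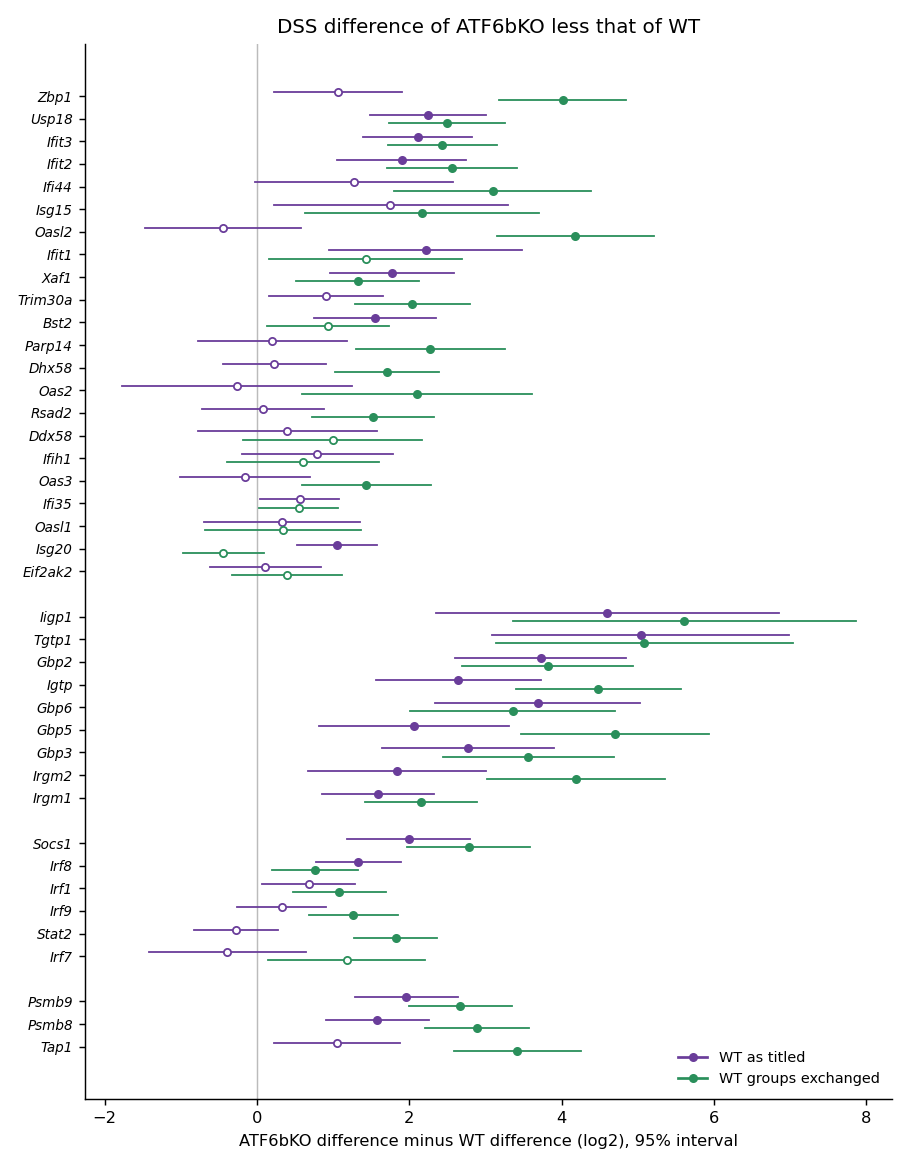
DSS difference of ATF6bKO minus the difference of WT for the 40 members (log2, horizontal axis; bars are 95% intervals), with WT as titled and with the WT groups exchanged, and filled points for an adjusted p under 0.05. Both points of all 9 GBP and IRG genes are filled, whereas Oasl2, Zbp1 and Tap1 are filled only with the WT groups exchanged.

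For ATF6aKO the comparison with WT depended on the reading. As titled, Stat2 was the single member past the threshold, its DSS difference less that of WT being -1.09 (SE 0.24, adjusted p = 0.0356), and 4.08% of all genes were lower. With the groups exchanged Stat2 was higher, at 1.01 (SE 0.24, adjusted p = 0.0173). Exchanged, 15 members were higher, against 14.0% of all genes, and Isg20 was lower, at -0.77 (SE 0.23, adjusted p = 0.0392), against 13.9%. Stat2 passed as titled in no fit that left out an ATF6aKO, an ATF6bKO DSS or a WT titled DSS array, and without the second WT titled UT array 10 members passed.

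Averaged over both treatments, a few members differed between genotypes. Each of these comparisons is also a comparison of slides. Those with WT took treatment from the titles. Exchanging the WT groups leaves their differences unchanged, but their errors and calls were not computed that way. In ATF6aKO against WT, 2 members were higher, against 14.7% of all genes, and 7 were lower, against 20.6%. In ATF6bKO against WT, 7 were higher, against 13.7%, and 1 was lower, against 15.7%. In ATF6aKO against ATF6bKO, 1 was higher, against 3.02%, and 7 were lower, against 6.11%. The share of members exceeded that of all genes for those lower in ATF6aKO than in ATF6bKO, where no call held in every fit that left out an array. For those higher in ATF6bKO than in WT it was near that of all genes. Psmb8, Tap1 and Trim30a lost that call in some of the fits that left out an array. In the other directions the share lay below that of all genes. These averages include the DSS arrays, and they move with the scaling between arrays. In the deposited value table, where the median differences of all genes were 0.565 for ATF6aKO and 0.598 for ATF6bKO against WT, 15 members were higher and 1 lower in ATF6aKO than in WT, against 47.5% and 6.61% of all genes. In ATF6bKO 28 were higher and 1 lower there, against 44.5% and 4.39%. With normexp background correction 3 members were higher and 5 lower in ATF6aKO than in WT, against 18.3% and 11.5%. Between the knockouts 1 was then higher and 31 were lower in ATF6aKO, when 56.4% of all genes were called in either direction and the median difference of all genes was -0.224.

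Zbp1 was higher in both knockouts than in WT, by 1.17 (SE 0.18, adjusted p = 0.00284) in ATF6aKO and 2.64 (SE 0.28, adjusted p = 0.00144) in ATF6bKO. Its UT arrays stood at 1.12 and 0.96 in ATF6aKO and 1.48 and 2.18 in ATF6bKO, above the -0.24 and -0.32 of WT titled UT, while WT titled DSS, at 0.99 and 1.42, overlapped with ATF6aKO UT. Oasl2 was higher too, by 1.15 (SE 0.33, adjusted p = 0.0276) and 1.95 (SE 0.27, adjusted p = 0.00316). Isg20 was lower in both knockouts, with differences of -0.74 (SE 0.20, adjusted p = 0.0222) and -1.40 (SE 0.24, adjusted p = 0.00648). Its 4 WT arrays, from 1.69 to 2.53, all lay above the 4 ATF6aKO arrays, from 1.17 to 1.51, and those above the 4 ATF6bKO arrays, from 0.47 to 0.85. Isg20 was also higher in ATF6aKO than in ATF6bKO, by 0.66 (SE 0.12, adjusted p = 0.0265).

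Ifit2 was at -3.48 and -3.43 on the UT arrays and -2.50 and -2.84 on the DSS arrays of ATF6aKO. In WT it was at -1.17 and -1.94 on the titled UT arrays and -1.41 and -1.04 on the titled DSS arrays. It was lower in ATF6aKO, with a difference of -1.67 (SE 0.23, adjusted p = 0.00159). All 4 ATF6aKO arrays lay below all 4 WT arrays. Oas2 was at -3.56 and -4.48 on the UT arrays and -3.16 and -3.32 on the DSS arrays of ATF6aKO. In WT it was at -2.74 and -3.67 on the titled UT arrays and -1.95 and -2.10 on the titled DSS arrays, so that the genotypes overlapped within UT and not within DSS by the titles. Its difference was -1.02 (SE 0.28, adjusted p = 0.0231). Ifi44, Irgm1, Ifi35 and Irf1 were lower in ATF6aKO as well, with differences of -0.95, -0.68, -0.63 and -0.58. Ifit2 and Zbp1 were the members that passed whichever array was left out, and the count was 2 without the second ATF6aKO UT array and 4 without the first. In the deposited value table Ifi35 and Irf1 differed by 0.03 and 0.08, on the other side of 0.

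In ATF6bKO against WT, Stat2 was higher by 1.04 (SE 0.16, adjusted p = 0.00471) and Dhx58 by 0.75 (SE 0.16, adjusted p = 0.0147). Psmb8, Tap1 and Trim30a were higher by 1.28, 1.19 and 0.90. The count was 19 without the first WT titled UT array and 5 without the first ATF6bKO DSS array. Between the knockouts, Ddx58, at -1.27 and -1.05 on the UT arrays and -0.90 and -1.09 on the DSS arrays of ATF6aKO and -0.69 and -0.42 on the UT arrays and 0.31 and -0.02 on the DSS arrays of ATF6bKO, was lower in ATF6aKO, with a difference of -0.88 (SE 0.16, adjusted p = 0.0267). Ifi44, Zbp1, Ifit2, Irgm1, Stat2 and Dhx58 were lower in ATF6aKO, with differences of -1.63, -1.46, -1.35, -1.34, -0.75 and -0.70. None of these calls between the knockouts passed in every fit that left out an array: 19 members passed without the first ATF6bKO UT array, 2 without the second ATF6aKO UT array and 0 without any of the other 6.

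Oasl1, Eif2ak2 and Irf7 passed in none of the comparisons. Oasl1 was at 0.25 and 1.28 on the titled UT arrays and 0.63 and 0.91 on the titled DSS arrays of WT, and on the knockout arrays it lay between 0.72 and 1.35. Eif2ak2 lay between -0.32 and 0.58 on all 12 arrays. Irf7 lay between -0.47 and 0.94, with both ends of that range on WT arrays.

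Genes of the same pathway that were not members were read as lists of ligands, receptors, signalling genes and further interferon-stimulated genes. Of 12 interferon and related ligand genes 6 were tested. Ifng, the gene of interferon gamma, was at -6.19 and -6.57 on the UT arrays and -1.34 and -0.97 on the DSS arrays of ATF6bKO, and both UT arrays were not well above background. It rose there by 5.22 (SE 0.62, adjusted p = 0.00204), at least 22.1-fold, the UT level being set to the lowest level well above background. In ATF6aKO it was at -7.88 and -8.27 on the UT arrays and -5.56 and -6.42 on the DSS arrays, a difference of 2.08 (SE 0.62, adjusted p = 0.0801), and it was well above background on 1 of the 4 arrays. In WT it was at -3.87 and -4.94 on the titled UT arrays and -3.30 and -5.31 on the titled DSS arrays, well above background on all 4. Il15, a cytokine that acts on T and NK cells, fell in both knockouts, with differences of -1.19 (SE 0.26, adjusted p = 0.0203) in ATF6bKO and -1.27 (SE 0.26, adjusted p = 0.0277) in ATF6aKO. The probes of Ifnb1, Ifna4, Ifnk and Ifne were not well above background on both arrays of any group and were not tested.

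All 6 receptor genes were tested. Ifnar2, a chain of the type I receptor, rose with DSS over both knockouts by 0.76 (SE 0.14, adjusted p = 0.00926), and no other receptor gene passed there. It was at 0.54 and 0.51 on the UT arrays and 1.49 and 1.54 on the DSS arrays of ATF6bKO, 0.91 and 0.90 on the UT arrays and 1.65 and 1.21 on the DSS arrays of ATF6aKO and 0.46 and 0.10 on the titled UT arrays and 0.20 and 0.10 on the titled DSS arrays of WT. Of 14 signalling genes tested, 4 rose and 3 fell over both knockouts, where 13.3% of all genes rose and 15.8% fell. Tlr7, a sensor of single-stranded RNA, was at -3.49 and -4.12 on the UT arrays and -1.95 and -1.90 on the DSS arrays of ATF6bKO and -3.55 and -3.23 on the UT arrays and -1.65 and -2.44 on the DSS arrays of ATF6aKO, and it rose over both knockouts by 1.61 (SE 0.23, adjusted p = 0.00421). Irf5 rose by 1.02 (SE 0.16, adjusted p = 0.00556) and Myd88, an adaptor of Toll-like receptors, by 0.55 (SE 0.10, adjusted p = 0.0102), and Cgas, the DNA sensor, fell, with a difference of -0.87 (SE 0.18, adjusted p = 0.0134).

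**Figure D5:**
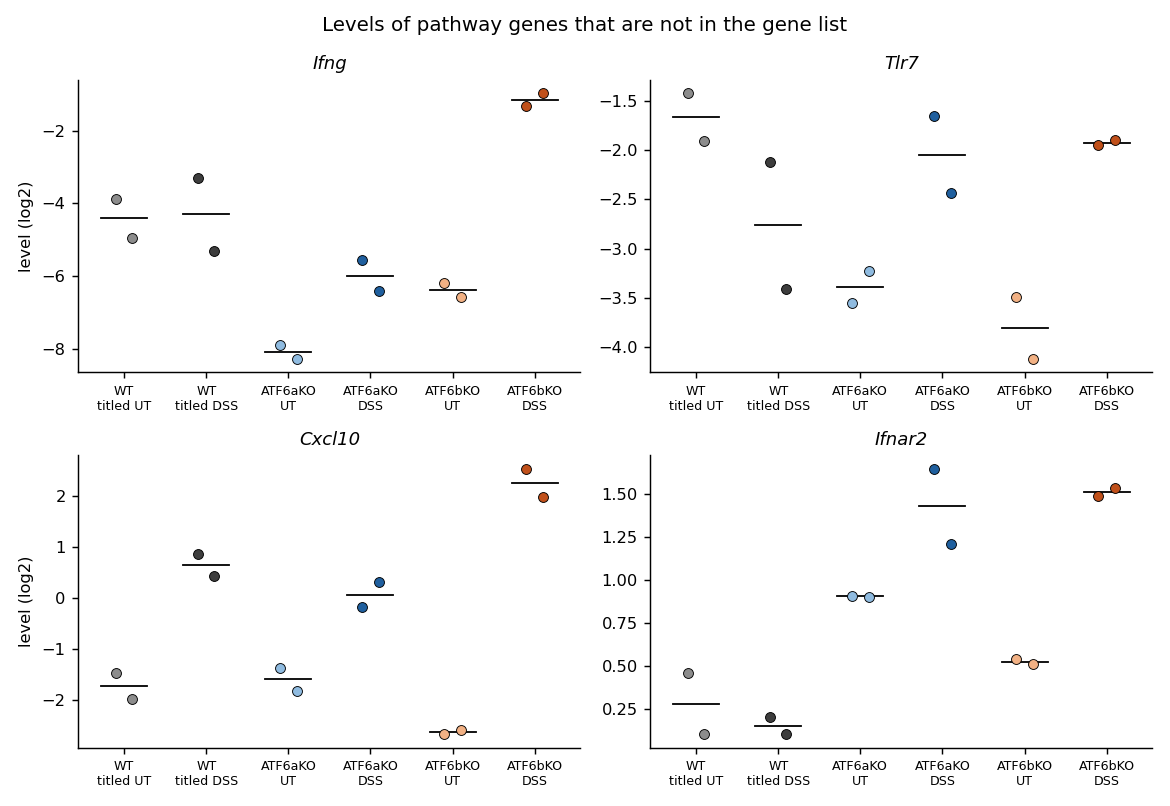
Levels of Ifng, Tlr7, Cxcl10 and Ifnar2 on each of the 12 arrays (log2 relative to the array's 75th percentile; each panel has its own vertical axis), with 1 point per array and a bar at the mean of the 2 arrays of a group. Ifng is at -1.34 and -0.97 on the ATF6bKO DSS arrays and at most -3.30 on the other 10. Of these, the 4 UT arrays of the knockouts and 1 of the 2 ATF6aKO DSS arrays were not well above background.

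Cxcl9, Cxcl10 and Ido1, which interferon gamma induces, rose with DSS in ATF6bKO by 6.37, 4.88 and 6.49, but in UT only 1 of the 2 arrays measured Cxcl9 well above background. In ATF6aKO Cxcl10 passed, at 1.66 (SE 0.30, adjusted p = 0.0179). Of 38 other interferon-stimulated genes tested, 28 rose in ATF6bKO (median 1.44), 6 in ATF6aKO (0.45) and 27 over both knockouts (0.94). The shares of all genes that rose were 5.71%, 2.88% and 13.3%. The widest pooled rises there were Ifi47 at 2.76 (SE 0.54, adjusted p = 0.0112), Ly6a at 2.10 (SE 0.12, adjusted p = 0.000682), Ms4a4c at 1.91 (SE 0.23, adjusted p = 0.0025) and Gbp7 at 1.75 (SE 0.28, adjusted p = 0.00538). These genes were listed with earlier results of the same arrays known and are no independent evidence.

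Markers of several immune cell types rose with DSS over both knockouts, as did many interferon-stimulated genes. In WT by the titles the median difference was -0.18 for T and NK cell markers and -0.29 for monocyte and macrophage markers. It was 0.11 for neutrophil, 0.33 for dendritic and -0.71 for B cell markers there, against 0.38 for the members. Over both knockouts 9 of 11 T and NK cell markers rose with DSS and 10 of 11 monocyte and macrophage markers. So did 10 of 10 neutrophil markers and 4 of 6 dendritic cell markers, where 13.3% of all genes rose. Of the B cell markers limma called 0 of 6. An unadjusted p under 0.05 was found for 5 of 6, all upward, against 4528 of 23239 genes upward. In ATF6bKO alone the counts were 8 of 11, 7 of 11 and 9 of 10 for the first 3 lists, against 5.71% of all genes. In ATF6aKO limma called 0, 1 and 4 of them, against 2.88% of all genes. There 6 of 11 T and NK cell markers had an unadjusted p under 0.05, all upward, against 2944 of 23239 genes upward. The levels of a list's markers, as multiples of the array's 75th percentile signal, were summed for each array. Such a sum follows mainly the brightest markers and is no measure of cell number. On the ATF6bKO DSS arrays the brightest T and NK marker was Ccl5, at log2 levels of 2.68 and 3.03. The brightest monocyte and macrophage marker was Lyz2, at 6.75 and 6.84, and the brightest neutrophil marker S100a9, at 4.22 and 4.19. The T and NK sum was 0.977 to 1.70 in ATF6bKO UT and 10.4 to 12.5 in ATF6bKO DSS. In ATF6aKO it was 1.50 to 1.58 in UT and 2.77 to 4.26 in DSS, and in WT 1.40 to 2.42 in titled UT and 2.50 to 2.75 in titled DSS. The highest sum thus lay in ATF6bKO DSS, as for 37 of the 40 members.

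The neutrophil sum was 0.506 to 0.930 in ATF6bKO UT, where S100a8, Csf3r, Mmp8, Fpr1, Fpr2 and Trem1 were not well above background, and 24.8 to 26.2 in ATF6bKO DSS. In ATF6aKO it was 0.966 to 0.967 in UT and 3.54 to 5.09 in DSS, and in WT it was 0.491 to 0.722 in titled UT and 0.532 to 1.72 in titled DSS. The monocyte and macrophage sum was 48.7 to 56.4 in ATF6bKO UT, 143 to 152 in ATF6bKO DSS, 65.7 to 73.4 in ATF6aKO UT and 108 to 168 in ATF6aKO DSS, so that here the highest array was an ATF6aKO DSS array. In WT it was 88.4 to 121 in titled UT and 64.8 to 105 in titled DSS. Dendritic sums were 0.916 to 1.06 and 3.21 to 4.49 in ATF6bKO UT and DSS, 1.38 to 1.73 and 2.52 to 4.06 in ATF6aKO, and 1.03 to 1.42 in WT. B cell sums were 0.975 to 1.07 and 2.65 to 7.99 in ATF6bKO UT and DSS, 2.78 to 5.95 and 4.08 to 8.50 in ATF6aKO, and 1.39 to 3.80 in WT. Of 11 epithelial markers, which identify the tissue as colon, 2 rose and 1 fell over both knockouts, near the 13.3% and 15.8% of all genes, and their sums lay between 1070 and 1570 in all 6 groups. The part of these cell types in the differences of the interferon-stimulated genes was not tested.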

How the data were processed

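Gene expression was measured in 12 colon samples, 2 per group, on arrays with 1 dye. Per the submitters' processing notes, Agilent Feature Extraction 10.7.1.1 quantified each array. The scanner output deposited by the authors gives each spot an intensity, the processed signal, which is already background-subtracted per the file headers. A deposited table of log2 values served as an alternative: 41267 of its 41268 probes had a mean of 0 within 0.001, so it was centred by probe, its column medians ran from -0.47 to 0.24, and its scaling between arrays stayed unknown. In 8 of its 12 columns the values were those of another sample's array, including all 4 WT columns, and each column was read as the array it equals.

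Control and outlier spots were left out (54 to 108 outliers per array), spots of a probe were averaged, and a probe was kept if well above background on both arrays of at least 1 group. The probe with the highest mean level stood for a gene. A RefSeq table of GRCm38.p6 gave gene names through the accessions of 25185 of 41174 probes (61.2%). For 5471 probes the accession differed between versions of the array design, which differed between genotypes. limma 3.58.1 in R 4.3.3 fitted 6 group means to all 12 arrays for the DSS comparisons and their differences, 8 knockout arrays with genotype for the pooled DSS comparison, and 8 arrays with treatment for each genotype comparison. Benjamini-Hochberg adjustment ran over 23239 genes with a threshold of 0.05. Precision is limited by the number of arrays. In simulated data 200 of 23203 genes were changed. Of those changed by 2 on the log2 scale 70% were called in the ATF6bKO comparison, and of those changed by 1 17%. In the measured ATF6bKO comparison 2994 of 23239 genes were called, many more than were changed in the simulation. The adjustment thus acts differently there, and these shares do not give the power of the measured comparison.

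The members, roles, pathway and marker lists were chosen with earlier results of these data known. Members past the threshold are given with their level on each array and at least 1 test, with up to 8 in most detail per comparison. Of other genes, up to 4 per list with the largest pooled difference are named, and Atf6, Atf6b, Ifng and Ifnb1 always. A further gene of the pathway is not reported here. The files hold no mean spot signal, so the normexp alternative used median signals.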

Additional observations from a re-analysis of the deposited data

Results flagged for a closer look

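In 21 cases the DSS difference of a member differed between a knockout and WT by a test of the difference itself, with WT as titled. In ATF6bKO against WT these were the GBP and IRG genes Tgtp1 (5.04), Iigp1 (4.60), Gbp2 (3.73), Gbp6 (3.69), Gbp3 (2.77), Igtp (2.64), Gbp5 (2.06), Irgm2 (1.84) and Irgm1 (1.59). The antiviral effectors were Usp18 (2.24), Ifit1 (2.22), Ifit3 (2.11), Ifit2 (1.90), Xaf1 (1.77), Bst2 (1.55) and Isg20 (1.05). The others were Socs1 (1.99), Irf8 (1.33), Psmb9 (1.96) and Psmb8 (1.58). Values are log2 differences of differences with an adjusted p under 0.05 in limma. The sizes for Tgtp1 and Irf8 are uncertain, because their second probes gave other differences. In ATF6aKO against WT, Stat2 differed by -1.09. With the WT groups exchanged, 17 of the 20 in ATF6bKO also passed, and the exceptions were Ifit1, Bst2 and Isg20.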

How the results depend on the processing

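The DSS comparison in ATF6bKO gave 24 to 34 members past the threshold under the other settings, with no member reversed. In ATF6aKO the count of 3 became 0 with no filter on dim probes, 8 in a fit of the 8 knockout arrays and 1 in a fit of the arrays compared. The WT count of 11 became 5 with no filter and 1 in a fit of the arrays compared. For ATF6aKO against WT as titled, the count of 1 became 2 with normexp background correction, 0 with no filter, 2 with a strict filter, 0 with the replicate block and 16 with the WT groups exchanged, where Stat2 turned to 1.01. For ATF6bKO against WT as titled, 20 became 31 with the WT groups exchanged, where Isg20 turned to -0.44. In the genotype comparisons, ATF6aKO against WT went from 9 to 16 in the value table (54.1% of all genes were called), where Ifi35 and Irf1 turned to 0.03 and 0.08. ATF6bKO against WT went from 8 to 16 with normexp (53.1% of all genes) and 29 in the value table (48.9%), and ATF6aKO against ATF6bKO from 8 to 32 with normexp (1 higher, 31 lower; 56.4% of all genes), 3 with no filter and 2 with the replicate block. The cause of these changes was not tested. The value table shifted the median of all genes to 0.565 in ATF6aKO against WT and 0.598 in ATF6bKO against WT, and normexp to 0.339 in the latter and -0.224 between the knockouts.

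Leaving out 1 array at a time, the counts ran from 0 to 7 for DSS in ATF6aKO, 21 to 34 in ATF6bKO, 15 to 29 pooled and 3 to 15 in WT. They ran from 0 to 0 for the difference between the knockouts, 0 to 10 for ATF6aKO and 7 to 27 for ATF6bKO against WT as titled, and 2 to 10, 5 to 19 and 0 to 19 for ATF6aKO against WT, ATF6bKO against WT and ATF6aKO against ATF6bKO. Over all settings the median over the members ran from 0.44 to 0.66 for DSS in ATF6aKO, 1.31 to 2.04 in ATF6bKO, 0.92 to 1.30 pooled and 0.08 to 0.67 in WT. For the difference in DSS response it ran from 0.88 to 1.26 between the knockouts, -0.14 to 0.98 for ATF6aKO and 1.12 to 2.16 for ATF6bKO against WT. For the genotypes it ran from -0.34 to 0.39 for ATF6aKO against WT, turning sign in the value table, 0.37 to 1.32 for ATF6bKO against WT and -1.03 to -0.66 between the knockouts. Over all genes the replicate numbers showed no pairing of the samples: deviations of same-numbered arrays correlated at 0.011 in WT, 0.075 in ATF6aKO and -0.018 in ATF6bKO. Most GBP and IRG genes, however, differed in the same direction between same-numbered arrays of a genotype. With the replicate numbers as a block the counts were 31 for DSS in ATF6bKO, 3 in ATF6aKO, 11 in WT, 25 pooled and 0 for the difference between the knockouts.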
